A study of Homo sapiens with 2 samples.

Results

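The genes described are 10 of innate sensing and complement control in HaCaT cells, a human epidermal keratinocyte line that became immortal in culture without a virus or transfected gene. They are the sensors CD14, TLR2, TLR3 and TLR4, the adaptor MYD88, the complement proteins C3 and CFB, and the complement regulators CD46, CD55 and CD59. Members were chosen by name, as the array probes whose only gene symbol is one of these. That gave 10 probes for 9 of the 10 genes, out of 30968 probes and 18454 genes that have a probe with 1 symbol. CFB had no probe of its own, CD46 had 2 and the other genes had 1 each.

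Exposed cells were HaCaT cells passaged with 0.5 µg/ml arsenic trioxide until passage 22, a dose that the labels equate with LC 0.5. Passage control cells were HaCaT cells carried to passage 22 without it, in the same serum-supplemented medium. According to the design text, 4 RNA preparations of each group, called technical replicates there, went onto 3 arrays each, which makes 24 one-colour arrays. For each probe and group the table gives 1 intensity, combined over the arrays, and 1 error. The comparison asks which transcripts differ after chronic exposure to arsenic. No spread between arrays could be computed, and with a single culture lineage per group the effect of arsenic cannot be told apart from divergence of the lineages.

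CD14 and the Toll-like receptors let cells recognise microbial molecules. CD14 hands lipopolysaccharide to the complex of TLR4 and its partner LY96, TLR2 recognises bacterial lipopeptides together with TLR1 or TLR6, and TLR3 recognises double-stranded RNA in endosomes. MYD88 carries the signal of most of these receptors, TLR3 excepted, to the IRAK kinases and NF-kB. Complement is a protease cascade that centres on C3. Factor B, encoded by CFB, forms the C3-cleaving enzyme of the alternative pathway. CD46, CD55 and CD59 sit on the cell surface and protect the host cell: CD46 is a cofactor for the cleavage of C3b and C4b, CD55 speeds the decay of the C3-cleaving enzymes and CD59 blocks assembly of the membrane attack complex. Keratinocytes are known to make several of these proteins.

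CD14 was lower in exposed cells and was the only member whose difference passed the test. TLR4, MYD88, C3, CD46, CD55 and CD59 were detected in both groups and did not pass. TLR2 and TLR3 were not detected in either group. A probe counted as detected where its deposited detection p-value was below 0.05. Log2 ratios are of exposed over passage control intensities, less their median of -0.43 (9915 probes with a detected signal in each group), and their errors are propagated from the 2 deposited errors. A gene was called where the p-value of the authors' deposited table, after Benjamini-Hochberg adjustment over all 7682 genes tested, was below 0.05. By this rule 1 of the 7 measured members was called, against 5.69% of all genes tested. Called lower were 1 member and 2.56% of all genes, and called higher were 0 members and 3.12% of all genes. The median log2 ratio was -0.11 over the 7 measured members and 0.01 over all 7692 genes measured. A single called gene among 7 says nothing particular to these genes as a group.

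**Figure D1:**
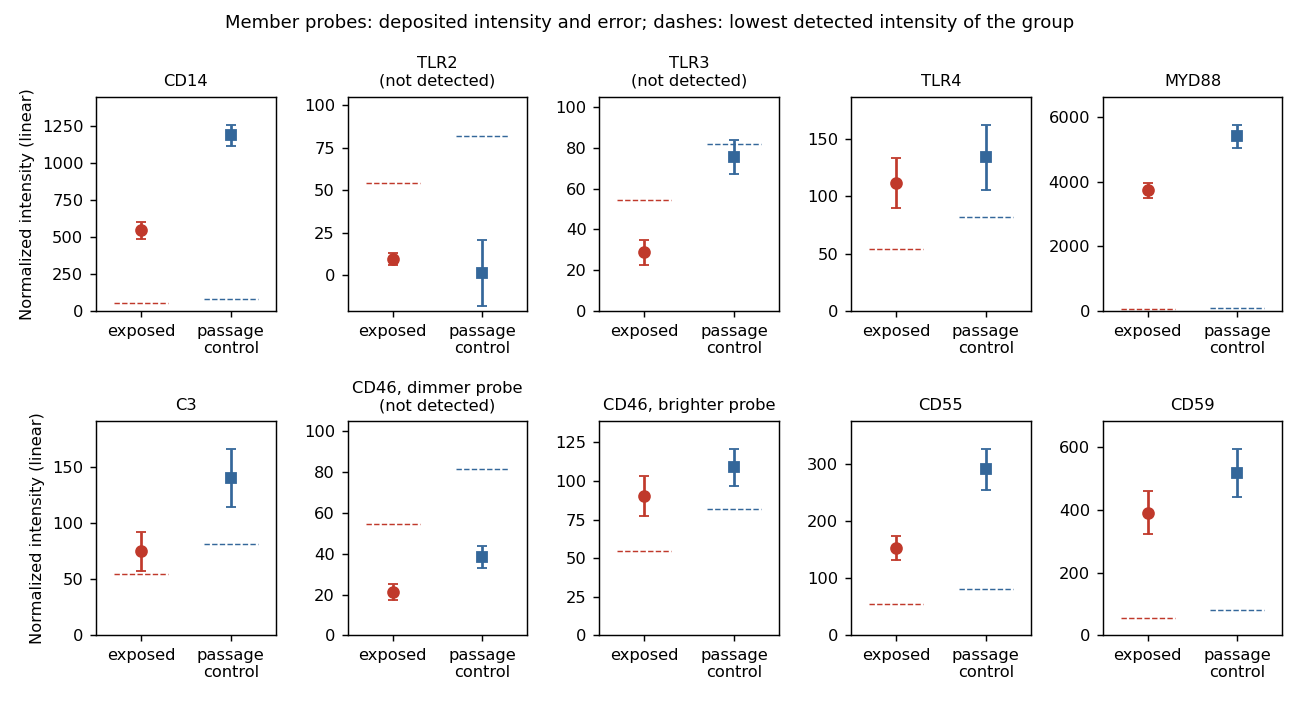
Normalized intensity on a linear scale for each of the 10 member probes, in exposed cells (red circles) and passage control cells (blue squares), with bars for the deposited error. Dashed lines mark the lowest intensity of any detected probe, 54.4 in exposed cells against 81.7 in passage controls. The CD14, MYD88, CD55 and CD59 points lie well above these lines, and both TLR2 points lie below them.

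CD14, the lipopolysaccharide coreceptor encoded on chromosome 5, had a normalized intensity of 545 ± 59.6 in exposed cells against 1190 ± 71.1 in passage controls, where ± after an intensity is the deposited error. Exposed cells were the lower group by far more than either error. After centring, CD14 was 1.62-fold lower in exposed cells, a log2 ratio of -0.70 ± 0.18, which is 3.87 times its error. The authors' deposited table gave -0.71 on the log2 scale, and the deposited p-value, 4.81e-10, was 7.50e-08 once adjusted here. The test behind the deposited p-values was not given, and they do not simply follow the propagated error. CASP1, an inflammasome protease gene at a log2 ratio of -1.49 ± 0.28, had a deposited p-value of only 0.00412 and did not pass. Among the 197 genes called lower, CD14 stood at place 26 by adjusted p, and 68 had a lower log2 ratio or bound. The detection p-value of CD14 was 1.71e-17 in exposed cells, against a listed 0 in passage controls, so the probe was detected in both. In RNA from whole cultures, fewer cells with CD14 and less CD14 RNA per cell cannot be told apart.

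CD14 is best known from monocytes and macrophages, and the arrays held probes for 9 of 12 leukocyte markers. Of these, CD68, AIF1 and MS4A1 were detected in both groups. PTPRC (the pan-leukocyte surface protein CD45), LYZ, CSF1R, CD3E and FCER1G were among those not detected in either. PTPRC read 18.5 in exposed cells against 23.6 in passage controls, below the lowest detected intensity of each group. Summed over the 9 probes before centring, with values below 0 set to 0, leukocyte markers came to 788 in exposed cells against 960 in passage controls, a smaller difference than the shift of all probes (1.35-fold lower in exposed cells). After centring, CD68 had a log2 ratio of 0.49 ± 0.23, the 3 measured markers had a median of -0.01, and none was called. Of the keratinocyte markers, KRT5, KRT10, TP63, SFN, S100A2, DSG3, DSP, JUP, CDH1 and PERP were detected in both groups, only KRT1 of the 11 with a probe was not, and none was called. Of the 10 measured keratinocyte markers 8 lay below 0, with a median log2 ratio of -0.25 against 0.01 over all genes, and the lowest was PERP, a desmosomal protein gene, at -0.71 ± 0.29. Before centring, the 11 probes summed to 72114 in exposed cells against 103102 in passage controls. The part of keratinocyte marker levels in the CD14 result was not tested. Of 8 fibroblast and 5 melanocyte markers with a probe, 4 and 1 were measured, and none was called. No marker of any kind was called, against 5.69% of all genes tested.

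TLR4, the lipopolysaccharide receptor, read 112 ± 21.7 in exposed cells against 134 ± 28.3 in passage controls. The 2 values lie within their errors of each other. Detection p-values were 0.000707 in exposed cells against 0.00675 in passage controls, where the lowest detected intensity was 81.7. The log2 ratio was 0.17 ± 0.41, while the authors' deposited table gave the other sign, -0.14 on the log2 scale. The deposited p-value, 0.782, was 0.999 once adjusted here, and the interval of 1 error around the ratio runs from -0.24 to 0.58.

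TLR2 read 9.45 ± 3.74 in exposed cells against 1.08 ± 19.5 in passage controls. Its detection p-values were 0.999 in exposed cells against 0.993 in passage controls, so no level can be given and no ratio was formed. TLR3 read 28.8 ± 6.05 in exposed cells against 75.6 ± 8.35 in passage controls. The passage control value lies just under the lowest detected intensity of 81.7, with a detection p-value of 0.116, against 0.805 in exposed cells. For TLR3 the authors' deposited table nevertheless lists -0.03 as log2 ratio and 0.893 as p-value. These transcripts were not detectable with these probes, which does not show that they were absent.

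MYD88, the adaptor on chromosome 3, read 3729 ± 225 in exposed cells against 5408 ± 360 in passage controls. Exposed cells had the lower intensity, but by about as much as the median probe. The log2 ratio after centring was -0.11 ± 0.13, the smallest error among the measured members, and the authors' deposited table gave -0.14 on the log2 scale. The deposited p-value, 0.344, was 0.964 once adjusted here. The interval of 1 error around the centred ratio runs from -0.24 to 0.02.

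**Figure D2:**
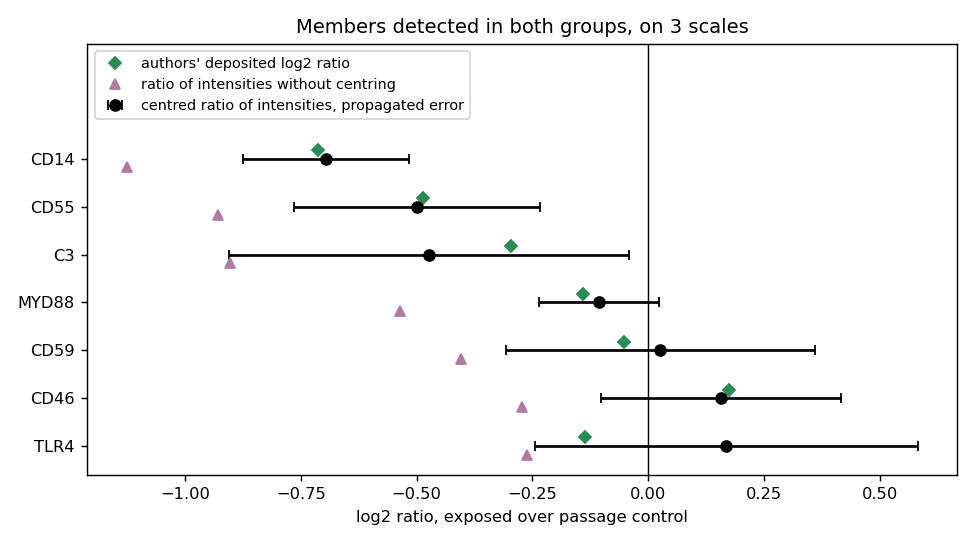
Log2 ratio of exposed over passage control for the 7 members detected in both groups: centred ratio of intensities with its propagated error (black circles), the authors' deposited log2 ratio (green diamonds) and the ratio without centring (purple triangles). All 7 triangles lie below 0. CD14, CD55, C3 and MYD88 lie below 0 on each of the 3 scales, and TLR4 and CD59 change sign between the centred and the deposited ratio.

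C3, the central complement component on chromosome 19, read 74.8 ± 17.6 in exposed cells against 140 ± 25.9 in passage controls. Both values are close to the lowest detected intensities, and the detection p-values were 0.0284 in exposed cells against 0.00216 in passage controls. The log2 ratio was -0.47 ± 0.43, barely larger than its error, and -0.30 in the authors' deposited table. The deposited p-value, 0.588, was 0.999 once adjusted here. At a stricter detection limit of 0.01 C3 is no longer detected in exposed cells.

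CFB shares 2 probes with its neighbour C2, which encodes another complement protease, and the readings cannot be assigned to either gene. The brighter of them read 370 ± 79.7 in exposed cells against 673 ± 124 in passage controls, a log2 ratio of -0.43 ± 0.41. The dimmer read 133 ± 17.4 in exposed cells against 174 ± 24.3 in passage controls, a log2 ratio of 0.04 ± 0.28. For these probes the authors' deposited table gave log2 ratios of -0.40 and -0.03 and p-values of 0.350 and 0.910. The 2 probes thus differ in direction after centring, each within about 1 error of 0, and neither passed when adjusted over the 10569 probes tested.

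Among the surface regulators, CD55 (decay-accelerating factor) had the largest difference. It read 153 ± 20.8 in exposed cells against 291 ± 36.0 in passage controls. The error bars of the 2 groups do not overlap, and exposed cells were the lower. The log2 ratio was -0.50 ± 0.27, or 1.88 times its error, and -0.49 in the authors' deposited table. The deposited p-value of 0.0456 is below 0.05 unadjusted, as it was for 13.6% of all genes tested, and was 0.349 once adjusted here. CD55 therefore did not pass.

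CD59, the inhibitor of the membrane attack complex encoded on chromosome 11, read 390 ± 68.9 in exposed cells against 516 ± 77.1 in passage controls. The 2 error bars overlap. The log2 ratio was 0.03 ± 0.33, and -0.05 in the authors' deposited table. The deposited p-value was 0.890, or 0.999 once adjusted here.

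CD46 (membrane cofactor protein) was read by 2 probes of different strength. The brighter read 90.2 ± 12.9 in exposed cells against 109 ± 11.9 in passage controls, a log2 ratio of 0.16 ± 0.26, while the authors' deposited table gave 0.17. Its deposited p-value, 0.617, was 0.999 once adjusted here. The dimmer read 21.3 ± 4.00 in exposed cells against 38.5 ± 5.29 in passage controls, and was not detected in either group. Only the brighter probe therefore gives a ratio for CD46, and it lay near the detection limit in both groups.

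CD55 and CD46 lie on the same stretch of chromosome 1, with the complement receptor genes CR2, CR1 and CR1L between them in RefSeq's gene order for GRCh38.p14. CR2 was not detected in either group, at 11.5 in exposed cells against 19.9 in passage controls. The CD55 and CD46 log2 ratios, -0.50 ± 0.27 and 0.16 ± 0.26, lie on opposite sides of 0, and neither passed.

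The upstream sequences of CD14, the called member, and of the neighbours CD55 and CD46 are shown to set the gene that was called beside 2 that were not. Each is the 250 bases before a transcript start in RefSeq's table for GRCh38.p14, read 5′ to 3′ on the gene's strand, with motif matches in capitals. They are chr5:140633176-140633425 on the minus strand for CD14, chr1:207321428-207321677 on the plus strand for CD55, and chr1:207751788-207752037 on the plus strand for CD46, the first of its 2 listed starts.
CD14: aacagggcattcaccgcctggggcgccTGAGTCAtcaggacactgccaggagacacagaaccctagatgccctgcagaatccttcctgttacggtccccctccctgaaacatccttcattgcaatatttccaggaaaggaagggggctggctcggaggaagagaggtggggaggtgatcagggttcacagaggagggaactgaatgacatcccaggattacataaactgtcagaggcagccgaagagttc
CD55: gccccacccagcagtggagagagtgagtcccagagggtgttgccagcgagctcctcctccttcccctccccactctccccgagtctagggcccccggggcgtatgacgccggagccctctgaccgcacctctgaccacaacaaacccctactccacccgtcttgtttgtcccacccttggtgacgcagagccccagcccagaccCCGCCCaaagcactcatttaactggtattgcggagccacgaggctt
CD46: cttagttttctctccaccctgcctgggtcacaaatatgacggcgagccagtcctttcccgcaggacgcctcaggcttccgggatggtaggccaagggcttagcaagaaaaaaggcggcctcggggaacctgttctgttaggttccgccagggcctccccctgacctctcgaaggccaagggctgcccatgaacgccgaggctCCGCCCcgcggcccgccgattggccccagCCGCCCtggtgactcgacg
The capitals in CD14 are an AP-1 match, TGAGTCA, that begins 223 bases before the start. Those in CD55 and CD46 are GC boxes, 1 in CD55 and 2 in CD46. CD59, which was not called and is not printed, also held AP-1 letters.

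Motifs searched on both strands, overlaps allowed, were AP-1 (TGANTCA), the cAMP response element (TGACGTCA), the antioxidant response element core (TGACNNNGC), NF-kB (GGANTTTCC), the GC box (GGGCGG), the interferon-stimulated response element (GAAANNGAA) and the TATA box (TATAAA). Of the 35116 upstream windows in the table, 6.57% held the AP-1 letters, 42.6% a GC box, 1.45% the NF-kB letters, 10.9% the antioxidant core and 6.88% the interferon letters. TATA letters stood in 10.7% and the cAMP response element in 1.65%. These shares are per window, while matches of members are listed by gene, and CD46 and CD59 had several windows each. The table held 13 windows for 9 of the 10 members. AP-1 letters stood in CD14 and in 1 of the 4 windows of CD59, which did not pass. In that CD59 window they began 117 and 23 bases before the start. NF-kB letters stood in TLR2, which was not detected, and interferon letters in MYD88 and CFB. GC boxes stood in windows of TLR2, TLR3, TLR4, MYD88, CD46, CD55 and CD59, and TATA letters in CFB alone. The antioxidant core and the cAMP response element stood in none of the 13. A match describes letters and not a bound site.

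**Figure D3:**
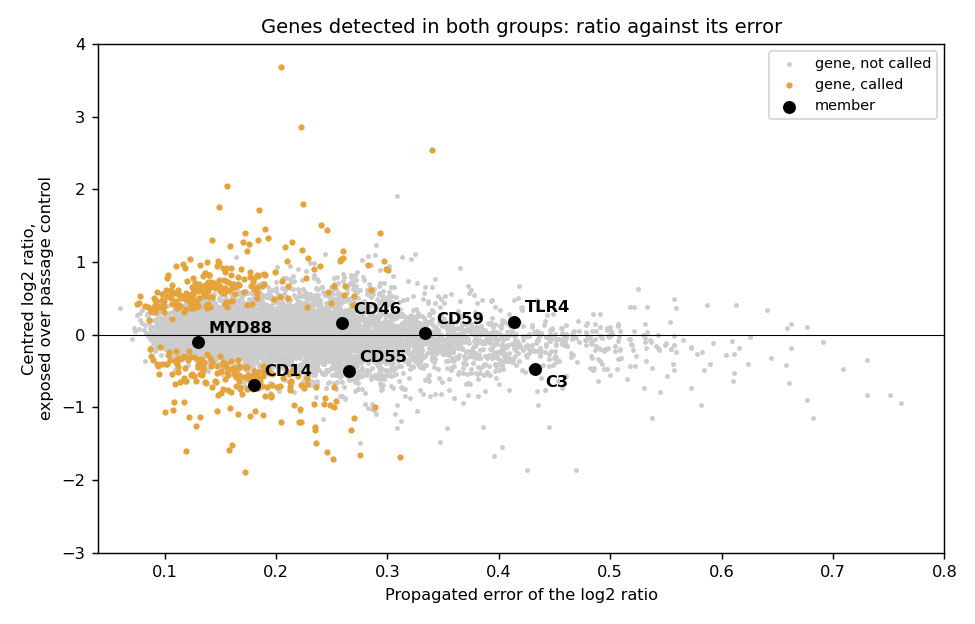
Centred log2 ratio against its propagated error for the 7244 genes detected in both groups, with called genes in orange, other genes in grey and the 7 members in black; 4 genes lie outside the axes. CD14 lies among called genes, while TLR4, C3, CD46, CD55 and CD59 lie to the right, at errors where few genes were called.

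TLR4, C3, CD46, CD55 and CD59 had larger errors than the median gene, and MYD88 and CD14 smaller ones. The members' errors on the log2 scale ran from 0.13 for MYD88 to 0.43 for C3, with a median of 0.27, against 0.20 over all genes measured. TLR4, C3, CD46, CD55 and CD59 had errors from 0.25 up to 0.45, a range in which 25 of 1959 genes tested were called, or 1.28%, with a median size of 1.00 on the log2 scale among those called. CD14 had an error between 0.15 and 0.25, where 179 of 3345 genes were called, or 5.35%, with a median size of 0.70. MYD88 had an error below 0.15, where 207 of 1747 genes were called, or 11.8%, with a median size of 0.51, and was not called.

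Among Toll-like receptors, their coreceptors and related genes, 18 genes were listed, 16 had a probe and 6 were measured. TLR6 rose, CD14 fell and 4 did not pass, so 2 of 6 were called, against 5.69% of all genes tested. TLR6, a partner of TLR2, read 387 ± 29.5 in exposed cells against 346 ± 31.5 in passage controls. Exposed cells were also higher by intensity, though the error bars overlap, and after centring TLR6 was 1.50-fold higher in exposed cells, a log2 ratio of 0.59 ± 0.17, while the authors' deposited table gave 0.57. The deposited p-value, 8.82e-05, was 0.00321 once adjusted here. TLR1, the other partner of TLR2 and TLR6's neighbour on chromosome 4, read 158 ± 22.7 in exposed cells against 149 ± 6.89 in passage controls. Its log2 ratio of 0.51 ± 0.22 did not pass, with a deposited p-value of 0.0394, or 0.322 once adjusted here. TLR1 and TLR6 are close relatives in sequence, and whether their probes share targets was not examined. TLR8, an endosomal receptor, did not pass at a log2 ratio of -0.76 ± 0.33, with an adjusted p of 0.875 from the deposited p-values.

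TLR2, TLR3, TLR5, TLR7, TLR10, LY96, LBP, CD36, CD180 and CNPY3 were not detected in either group. Among them are TLR2, the receptor that TLR6 pairs with, and LY96, which TLR4 needs to respond to lipopolysaccharide and which read 8.28 in exposed cells against 5.15 in passage controls. The median log2 ratio of the 6 measured genes was -0.02, against 0.01 over all genes measured.

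Downstream of the receptors, 27 adaptors, kinases and regulators were listed and 20 measured. None was called, against 5.69% of all genes tested, and 2 had a deposited p-value below 0.05 before adjustment, against 13.6% of all genes tested. The median log2 ratio was 0.08, against 0.01 over all genes. The smallest adjusted p-values, from the authors' deposited table as adjusted here, belonged to TNFAIP3, IRAK1 and TAB3. TNFAIP3, which encodes the NF-kB inhibitor A20, had a log2 ratio of 0.51 ± 0.30 (adjusted p 0.256). The receptor-associated kinase gene IRAK1 had 0.35 ± 0.12 (adjusted p 0.262) and TAB3 had 0.46 ± 0.25 (adjusted p 0.538). MYD88's fellow adaptors TIRAP and TICAM2 had log2 ratios of 0.18 ± 0.15 and 0.23 ± 0.14 and did not pass. TICAM1, the adaptor of TLR3, was not detected in either group, nor was TRAF6.

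Cytosolic and nuclear sensors with their adaptors lay mostly below 0. Of 17 listed genes 9 were measured, 8 of them below 0, with a median log2 ratio of -0.46 against 0.01 over all genes. Among the 8, MAVS and NOD2 lay within 1 error of 0, at -0.13 ± 0.14 and -0.005 ± 0.14. None was called, against 5.69% of all genes tested. Before adjustment, 2 of the 9 had a deposited p-value below 0.05, against 13.6% of all genes tested. CASP1, the inflammasome protease gene, read 92.9 ± 14.1 in exposed cells against 352 ± 41.0 in passage controls. In exposed cells CASP1 lay near the lowest detected intensity of 54.4, with a detection p-value of 0.000367. The 2 groups lie far apart against these errors, with a log2 ratio after centring of -1.49 ± 0.28, while the authors' deposited table gave -1.18. Its deposited p-value, 0.00412, was 0.0646 once adjusted here, so CASP1 did not pass. STING1, the adaptor of cytosolic DNA sensing, read 550 ± 71.4 in exposed cells against 1048 ± 81.4 in passage controls, a log2 ratio of -0.50 ± 0.22. Its deposited p-value, 0.00345, was 0.0577 once adjusted here, also just above the limit. DHX58, a regulator of RNA sensing, had a log2 ratio of -0.46 ± 0.23 and an adjusted p of 0.370 from the deposited p-values.

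**Figure D4:**
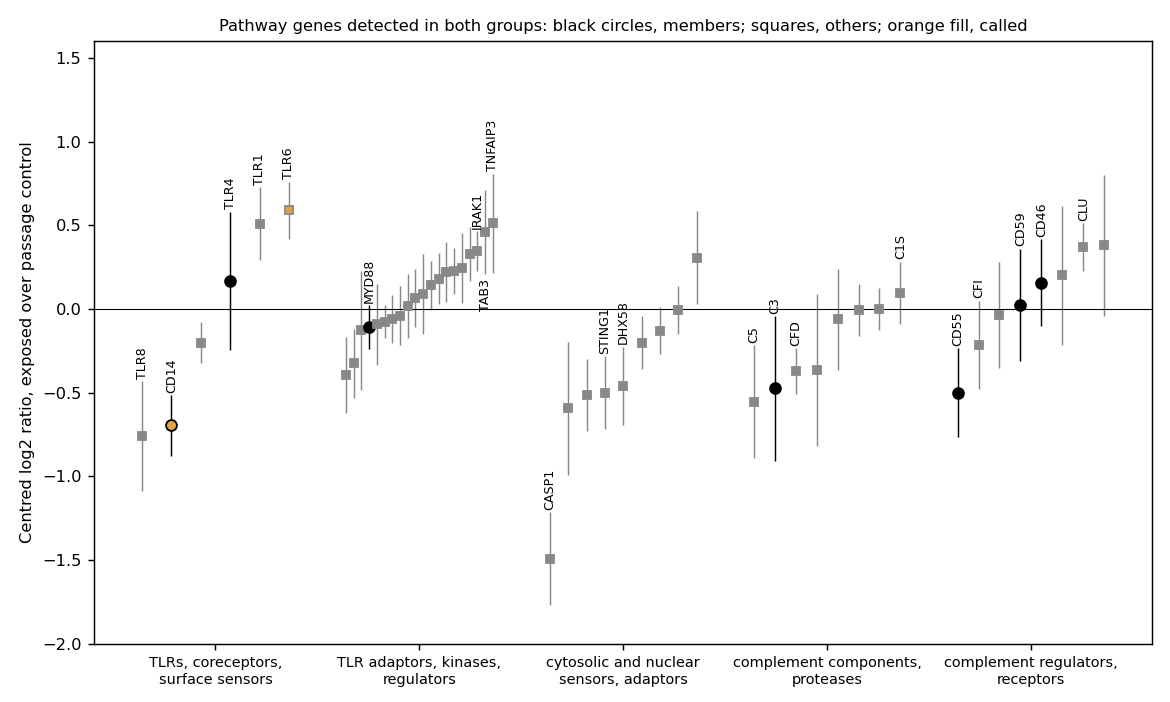
Centred log2 ratio with its propagated error for the genes of the 5 pathway lists detected in both groups, ordered by ratio within each list. Members are black circles, other genes grey squares, and an orange fill marks the 2 called genes, TLR6 at 0.59 and CD14 at -0.70.

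Of 26 complement components and proteases 22 had a probe of their own and 8 were measured. None was called, against 5.69% of all genes tested. Before adjustment, 1 of the 8 had a deposited p-value below 0.05, near the 13.6% of all genes tested. The median log2 ratio was -0.21, against 0.01 over all genes, and was -0.054 by the log2 ratios that the authors' deposited table lists. CFD, which encodes factor D, the protease that activates factor B, had a log2 ratio of -0.37 ± 0.14 and an adjusted p of 0.213 from the deposited p-values. C5, the target of the C5-cleaving enzymes, had a log2 ratio of -0.55 ± 0.34 (adjusted p 0.494 from the deposited p-values), and C1S, a classical pathway protease gene, of 0.10 ± 0.19. Neither passed. The genes of the membrane attack complex C6, C7, C8A, C8B, C8G and C9 were not detected in either group.

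Of 22 complement regulators and receptors 19 had a probe and 8 were measured, with CD46, CD55 and CD59 among them. None was called, against 5.69% of all genes tested. Before adjustment, 2 of the 8 had a deposited p-value below 0.05, against 13.6% of all genes tested. The median log2 ratio was 0.09, against 0.01 over all genes, but it lay below 0 by the ratios that the authors' deposited table lists (-0.023) and without centring (-0.34). CLU, which encodes the secreted regulator clusterin, read 12324 ± 959 in exposed cells against 12843 ± 813 in passage controls, and had a log2 ratio of 0.37 ± 0.14 and an adjusted p of 0.197 from the deposited p-values. CFI, which encodes factor I, the protease that uses CD46 as a cofactor, had a log2 ratio of -0.21 ± 0.26. Neither passed. The receptor genes C3AR1, C5AR1, C5AR2 and CR2 were not detected in either group, nor was SERPING1.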

How the data were processed

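RNA from arsenic-exposed and passage control HaCaT cells was amplified and coupled to Cy5 for 1-colour arrays, per the labels' protocols. Per the file headers, the authors deposited for each probe and group a normalized intensity on a linear scale and a detection p-value. The deposited error of each intensity is a signal value in the same unit. For the comparison itself the authors deposited a log2 ratio and a p-value. The scanner, the background correction, the normalization, the kind of error and the test behind that p-value were not given in the sources used here. A second deposited set of intensities was the same to within 5.00e-07.

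No test was computed from the intensities since each group had 1 value. Each gene was represented by its brightest probe (of 30968 probes, 22935 named 1 symbol, 2203 several and 5830 none), and symbols of 19788 probes were matched by gene identifier to RefSeq's GRCh38.p14 table. A probe with signal in only the brighter group got a bound against the lowest detected intensity of the other. All 10 members were described, and from each pathway list the called genes and the 3 with the smallest adjusted p. Ties were broken by list order, which took TLR4 before UNC93B1, and C1S before C3 and other complement components. Genes outside that rule, among them TIRAP, TICAM2, CR2, PTPRC and LY96, are named for their roles, after their values were seen. MAVS and NOD2 are named for their small ratios. Undetected genes such as TICAM1, TRAF6, SERPING1, C3AR1 and those of the membrane attack complex are also named outside that rule. Members and lists were chosen with earlier results of these data known. The promoter motifs were chosen after the data were examined, and the NF-kB and interferon letters were shortened after matches to longer forms had been seen. The number of arrays limits the precision. Centring and the call rule were tested on simulated data. Its p-values were computed from the propagated error, so that test does not bear on the deposited p-values. Python 3.11.15, numpy 2.4.6 and pandas 2.3.3 were used.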

Additional observations from a re-analysis of the deposited data

How the results depend on the processing

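Averaging a gene's detected probes could change no member, since each measured member had 1. CD14 stayed below 0 under the other 5 alternative scales or settings, with log2 ratios from -1.13 without centring to -0.67, and was the 1 member called under each of the 4 alternative call rules run. These 4 rules reuse the same deposited p-values and change only the filter, the minimum size or the adjustment, so they are no separate check of the call. The filter on dim genes left 3 members. CD55, C3 and MYD88 also stayed below 0 under the same 5 scales or settings, from -0.93 to -0.43, from -0.90 to -0.30 and from -0.54 to -0.08. Without centring, TLR4, CD46 and CD59 turned to -0.26, -0.27 and -0.40, since centring adds the same amount to every gene. In the authors' deposited table TLR4 and CD59 turned to -0.14 and -0.051, and with an offset of 32 CD59 turned to -0.00086. The cause was not tested for these. TLR6 stayed above 0 in the 5 alternatives run for it, at 0.16 without centring. Without centring the medians of the 5 lists, in the order described, were -0.45, -0.35, -0.89, -0.64 and -0.34, and the last turned to -0.023 with the deposited log2 ratio. A minimum of 1.5-fold left 226 called genes, 130 higher and 96 lower, in place of 437, 240 and 197, by its own construction. No replicate could be left out, because the deposited values are already combined over arrays. No paired analysis was possible because each group has 1 combined value.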
